A study of Mus musculus with 10 samples.

Results

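The VEGF ligands, their receptors and the neuropilins were followed as 10 genes, Vegfa, Vegfb, Vegfc, Vegfd, Pgf, Kdr, Flt1, Flt4, Nrp1 and Nrp2, chosen by name from the count table, where all 10 of them were among its 18603 genes. The table comes from RNA sequencing of RENCA tumours (a kidney cancer line of the mouse) grown under the skin of female Balb/c mice. In the 5 treated tumours the injections held SLR14, a triphosphate RNA ligand of the virus sensor RIG-I, in lipid nanoparticles and 50 µL of PBS, and the 5 control tumours received PBS. The labels name no group given empty nanoparticles. Injection began at tumour volumes of 100 to 150 mm3, was done 3 times at intervals of 48 h, and tumours were taken 24 h after the last injection. The groups had 5 mice each, and no age is stated for them.

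VEGF ligands are secreted dimers that act on receptor tyrosine kinases of endothelial cells. VEGF-A drives the growth of blood vessels through VEGFR-2, the product of Kdr, and also binds VEGFR-1, the product of Flt1, which holds ligand with high affinity and signals weakly. VEGF-B and placental growth factor bind VEGFR-1, and VEGF-C and VEGF-D act on VEGFR-3, the product of Flt4, which is best known from lymphatic vessels. Neuropilins are co-receptors that bind VEGFs and class 3 semaphorins and that many other cells carry. In kidney cancer VEGF-A is a textbook target of the hypoxia-inducible factors and the aim of approved drugs.

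After SLR14, 0 of the 10 genes passed a Benjamini-Hochberg adjusted p of 0.05 in edgeR's quasi-likelihood test, where 0.963% of the 15883 genes tested passed. At an unadjusted p under 0.05 there were 0 of 10, against 10.8% of all genes tested, and DESeq2 and limma voom also called 0 and had 0 at that level. In each of the 10 genes the ranges of PBS and SLR14 tumours overlapped, whereas 3.24% of all genes had groups without overlap. The fold change was positive for 7 and negative for 3 genes (all genes tested, 7622 positive and 8261 negative). The median log2 fold change was 0.20 (all genes tested, -0.01), with a range of -0.15 to 0.54. That median was 0.099 without PBS 5 and 0.060 without both PBS 5 and SLR14 2, where the medians of all genes were -0.0031 and -0.0084. In the same tumours 9 of 11 genes of an interferon-response list rose and 0 fell, which checks the labels (5 rose without PBS 1, 2 or 3 or without SLR14 1 or 3). The RIG-I gene Rigi went from 26.9 ± 6.89 to 47.7 ± 2.81 CPM.

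Total counts ranged from 17931895 to 39842608 per tumour. All 10 genes passed the low-count filter, with raw counts per tumour between 17 (Vegfc in SLR14 2) and 27459 (Nrp2 in SLR14 3), so counting error weighs on Vegfc and Pgf and little on the rest. PBS 5 had the highest summed level of 6 erythroid genes (173 CPM, with 54.3 to 63.9 CPM in PBS 1 to 4 and at most 98.3 CPM under SLR14), and SLR14 2 the lowest summed level of 10 skeletal muscle genes (2.68 CPM against 97.0 to 222 in the other SLR14 tumours). Whether blood or muscle in the sample plays a part in the values below was not tested. Endothelial markers were present in every tumour, with a summed level of 285 to 522 CPM over 18 genes, all of them in the table. Of 6 lymphatic endothelial markers, Pdpn and Lyve1, which other cells also carry, were tested. Prox1, the defining factor of lymphatic endothelium, Ccl21a, Reln and Mmrn1 were not analysed here.

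Levels can be compared between genes only per length, and are given here as CPM (counts scaled to library size with TMM factors) per kb of merged exons in GENCODE M21. Vegfa had 53.5 ± 13.9 CPM per kb in PBS tumours (SD, n = 5), above 93.9% of the 15283 tested genes with a length. Nrp2 followed with 47.2 ± 11.0 and Vegfb with 42.5 ± 6.58 CPM per kb, and the ranges of these 3 genes overlapped between neighbours. Vegfd came next with 25.6 ± 6.05 CPM per kb, and its range lay below that of Vegfb and above that of the next gene. A second tier began with Nrp1 (4.56 ± 1.12 CPM per kb), Kdr (3.17 ± 1.08) and Flt1 (2.82 ± 0.760), and ended with Flt4 (1.25 ± 0.527), Pgf (0.862 ± 0.290) and Vegfc (0.500 ± 0.151). Within that tier each gene's range overlapped that of the next in PBS tumours. The order in SLR14 tumours was the same except that Pgf (1.27 ± 0.499) and Flt4 (1.13 ± 0.184 CPM per kb) changed places, with overlapping ranges. Merged exons count every annotated isoform, so the level of a gene with long alternative ends, such as Flt1 with its soluble form, is understated.

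**Figure D1:**
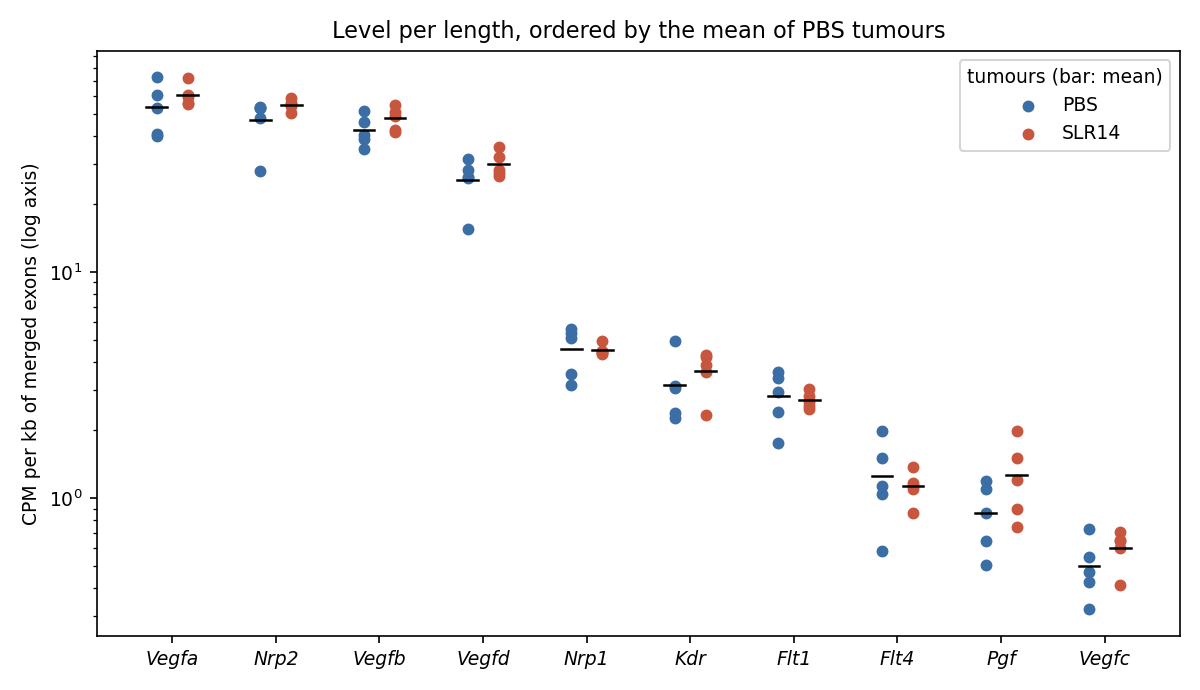
Level of each gene per kb of merged exons on a log axis, 1 point per tumour, blue for PBS and red for SLR14, with a bar at each group's mean. Vegfa, Nrp2, Vegfb and Vegfd lie between 15.6 and 72.7 CPM per kb in every tumour, and the other 6 genes between 0.323 and 5.61.

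Among the ligands Vegfa made up 43.0 ± 4.16% of the summed level per length under PBS and 43.2 ± 2.39% under SLR14 (SD, n = 5). Vegfb held 35.0 ± 5.83% and 34.0 ± 1.91%, and Vegfd 20.9 ± 4.63% and 21.4 ± 2.30%. Vegfc and Pgf were minor in every tumour, at 0.256 to 0.705% and 0.491 to 1.23%. Of the 2 ligands of VEGFR-3, Vegfd therefore exceeded Vegfc in each tumour, by 36.1 to 78.0 times per length. Nrp2 exceeded Nrp1 by 8.59 to 15.1 times per length. Kdr and Flt1 were close, with a ratio of Flt1 to Kdr between 0.608 and 1.14.

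Vegfa (ENSMUSG00000023951), the main blood vessel growth factor, had 261, 229, 171, 312 and 174 CPM in PBS tumours 1 to 5 and 260.3, 309, 238, 256 and 239.7 CPM in SLR14 tumours 1 to 5. PBS 3 and PBS 5 were low, while PBS 4 and SLR14 2 were high. The means of 229 ± 59.4 and 261 ± 28.6 CPM (SD, n = 5) differed by a log2 fold change of 0.18 (95% interval -0.16 to 0.53, edgeR adjusted p = 0.676). It was 0.098 without PBS 3, 0.094 without PBS 5, 0.12 without SLR14 2 and 0.026 without both PBS 5 and SLR14 2. Without PBS 4 it was 0.32, where the unadjusted p of 0.0441 gave an edgeR adjusted p of 0.386. Gene counts do not separate the splice forms of Vegfa, which differ in heparin binding.

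Vegfb (ENSMUSG00000024962), a ligand of VEGFR-1 abundant in oxidative tissues, had 62.6, 65.0, 74.2, 83.1 and 56.1 CPM in PBS tumours and 67.2, 88.3, 68.6, 81.9 and 78.9 CPM in SLR14 tumours. Every SLR14 value lay above that of 2 PBS tumours (1 and 2) and of PBS 5, and the groups still overlapped through PBS 3 and 4 (log2 fold change 0.17, 95% interval -0.08 to 0.43, edgeR adjusted p = 0.612). The log2 fold change was 0.11 without PBS 5 and 0.050 without both PBS 5 and SLR14 2. Pgf (ENSMUSG00000004791), placental growth factor, had 2.51, 3.17, 1.89, 3.47 and 1.47 CPM in PBS and 4.39, 5.77, 3.50, 2.60 and 2.16 CPM in SLR14 tumours. SLR14 1, 2 and 3 were above every PBS tumour, SLR14 3 by a narrow margin, and SLR14 4 and 5 fell within the PBS range. Its log2 fold change of 0.54 was the greatest of the 10 genes and had the widest interval, -0.10 to 1.17 (adjusted p = 0.536 in edgeR). It was 0.33 without SLR14 2 and 0.18 without both PBS 5 and SLR14 2.

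Vegfd (ENSMUSG00000031380), a lymphatic growth factor, had 67.9, 76.6, 37.5, 62.8 and 63.3 CPM in PBS tumours and 68.5, 77.6, 66.2, 64.0 and 86.0 CPM in SLR14 tumours. PBS 3 alone was far below the rest, and the other 4 PBS values lay close to those of SLR14 tumours (log2 fold change 0.23, 95% interval -0.11 to 0.58, edgeR adjusted p = 0.612). Without PBS 3 the log2 fold change of Vegfd was 0.10, and without PBS 2 it was 0.32 (edgeR adjusted p = 0.528). Vegfc (ENSMUSG00000031520), the main lymphatic growth factor of development, had 1.15, 1.05, 0.792, 1.35 and 1.78 CPM in PBS tumours and 1.60, 1.01, 1.47, 1.58 and 1.73 CPM in SLR14 tumours. SLR14 2 lay with the low PBS tumours and PBS 5 was the highest of all (log2 fold change 0.29, 95% interval -0.25 to 0.82, edgeR adjusted p = 0.682). Without PBS 3 its log2 fold change was 0.17, without PBS 5 0.45, and without both PBS 5 and SLR14 2 0.54, at an unadjusted p of 0.0415 and an edgeR adjusted p of 0.409.

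**Figure D2:**
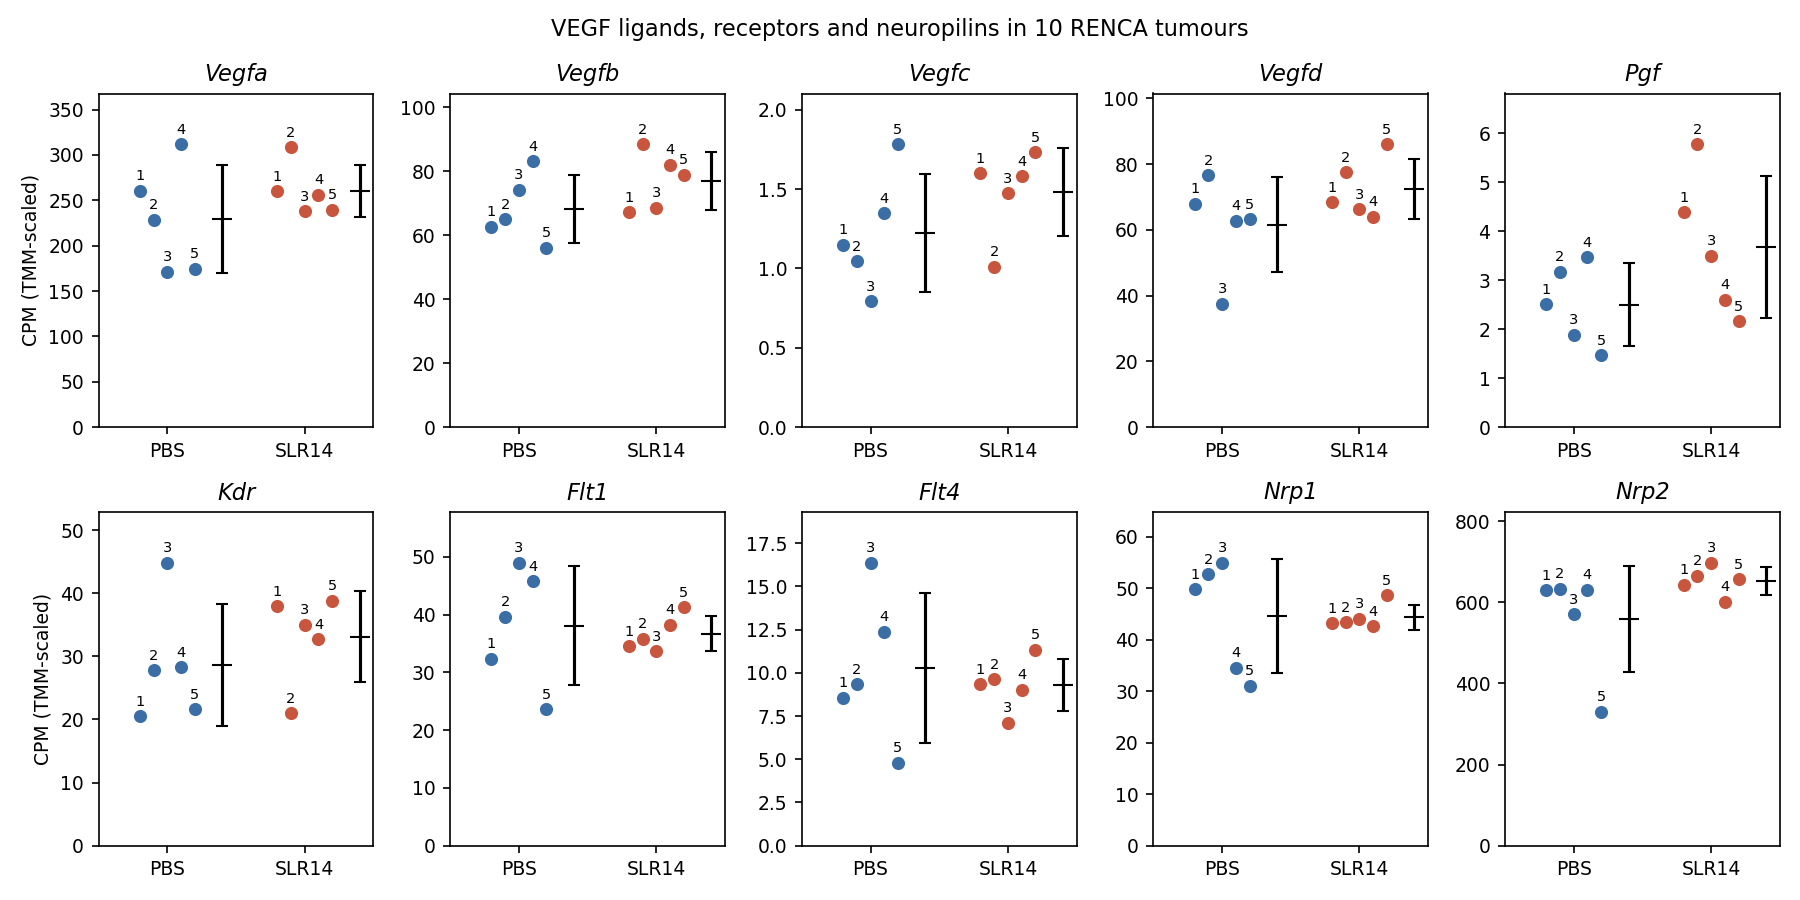
TMM-scaled CPM of each gene in each tumour, from 0 upward, with digits for the tumour number and a black bar for the mean and SD of 5 tumours. The groups overlap in all 10 panels, and PBS 5 is the lowest tumour in Vegfb, Pgf, Flt1, Flt4, Nrp1 and Nrp2.

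For each receptor the SD among PBS tumours exceeded the difference between the group means. Kdr (ENSMUSG00000062960), the main signalling receptor of blood vessel endothelium, had 20.5, 27.8, 44.8, 28.3 and 21.6 CPM in PBS tumours and 37.9, 21.0, 35.0, 32.7 and 38.8 CPM in SLR14 tumours. SLR14 2 was low and PBS 3 was the highest of all 10, and the others of the SLR14 group exceeded the other 4 PBS tumours. The log2 fold change was 0.21 (95% interval -0.24 to 0.67, edgeR adjusted p = 0.714), and 0.44 without PBS 3, where the unadjusted p of 0.0278 gave an edgeR adjusted p of 0.421. It was 0.12 without PBS 1, 0.13 without PBS 5 and 0.34 without SLR14 2.

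Flt1 (ENSMUSG00000029648), the high-affinity receptor that can act as a decoy, had 32.3, 39.6, 48.9, 45.8 and 23.6 CPM in PBS and 34.5, 35.8, 33.7, 38.3 and 41.3 CPM in SLR14 tumours. The SLR14 tumours sat inside the PBS range (log2 fold change -0.05, 95% interval -0.41 to 0.30, edgeR adjusted p = 0.916). Flt4 (ENSMUSG00000020357), the receptor of VEGF-C and VEGF-D, had 8.57, 9.33, 16.4, 12.4 and 4.80 CPM in PBS and 9.35, 9.64, 7.11, 9.02 and 11.4 CPM in SLR14 tumours. Here too the SLR14 values fell inside the PBS range, between PBS 5 and PBS 4 (log2 fold change -0.15, 95% interval -0.70 to 0.40, edgeR adjusted p = 0.831). Flt1 and Flt4 both ran from PBS 5 as the lowest to PBS 3 as the highest tumour. In bulk tissue, fewer endothelial cells and less receptor RNA per cell cannot be told apart.

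Nrp2 (ENSMUSG00000025969), the co-receptor of VEGF-C and Sema3f, had 630.1, 634, 571, 631 and 331 CPM in PBS tumours and 643, 666, 697, 601 and 657 CPM in SLR14 tumours. PBS 5 was low, and the other 9 tumours lay within 571 to 697 CPM. The log2 fold change was 0.22 (95% interval -0.11 to 0.56, edgeR adjusted p = 0.616) and 0.078 without PBS 5. Nrp1 (ENSMUSG00000025810), the co-receptor of VEGF-A and Sema3a, had 49.8, 52.6, 54.9, 34.5 and 31.1 CPM in PBS and 43.2, 43.4, 44.0, 42.6 and 48.7 CPM in SLR14 tumours. SLR14 tumours lay in the gap between 3 higher and 2 lower PBS tumours, and the means were nearly equal (log2 fold change -0.01, 95% interval -0.33 to 0.31, edgeR adjusted p = 0.988).

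**Figure D3:**
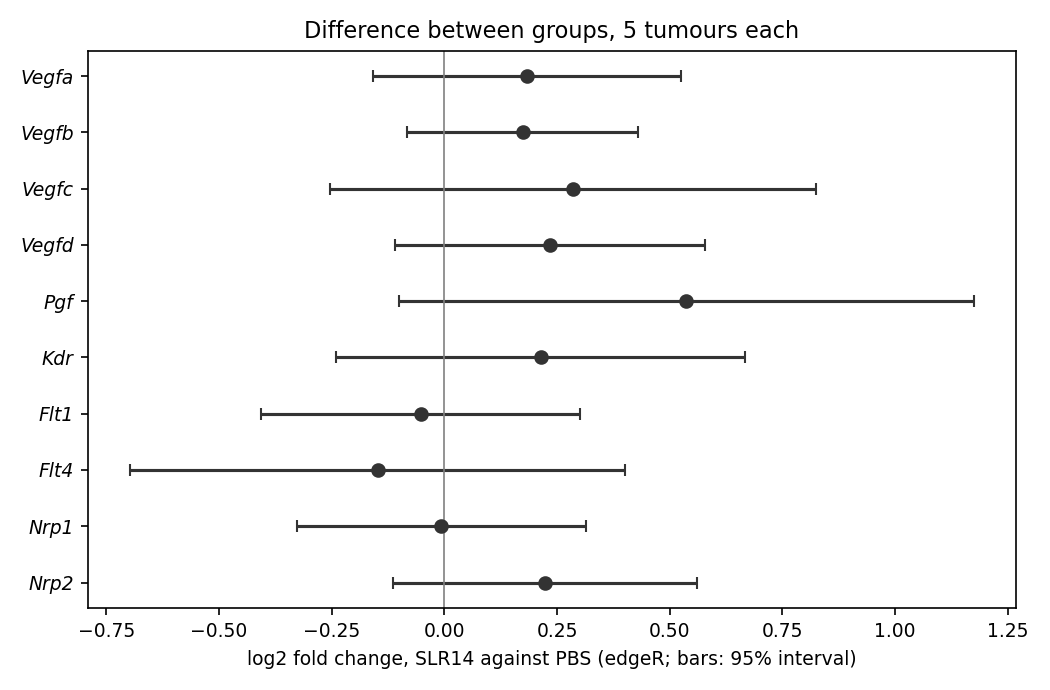
Log2 fold change of SLR14 against PBS for each gene (point, edgeR) with its 95% interval (bar), from 5 tumours a group. Every interval spans 0, from the narrow ones of Vegfb (-0.08 to 0.43) to the wide one of Pgf (-0.10 to 1.17).

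The spread between tumours differed between the groups. The coefficient of variation (SD as a share of the mean) was lower in SLR14 than in PBS tumours for 9 of the 10 genes, with Pgf as the exception, and its median over the 10 was 26.4% in PBS and 12.2% in SLR14 tumours. All genes with a mean of at least 1 CPM had medians of 17.9% and 10.4%, and 75.2% of them were less variable in SLR14 tumours, so the direction was that of the table as a whole. PBS 5 was the lowest tumour in 6 of the 10 genes and PBS 3 the lowest in 3 and the highest in 4. Over the whole count table PBS 5 also stood apart from PBS 1 to 4. The chi-square of its pairs with them was 103 to 146 times the degrees of freedom. It was 14.7 to 41.8 times among PBS 1 to 4 and 8.15 to 38.9 times among SLR14 tumours. The spread of the PBS group without PBS 5 was not computed, so how far this tumour sets it was not tested.

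Flt1 and Flt4 followed the endothelial markers from tumour to tumour. The endothelial score, the mean log2(CPM + 1) of the 18 markers (Pecam1, Cdh5, Tek and others), correlated with Flt1 at Pearson r = 0.83 and Spearman rho = 0.83 over 10 tumours, with permutation p = 0.00229 and 0.00466 and adjusted p = 0.025 and 0.0625 over 20 relations (10 genes against 2 scores, chosen after the values had been seen). Flt4 gave r = 0.82 and rho = 0.78 (permutation p = 0.0025 and 0.0101, adjusted 0.025 and 0.0625). Without PBS 1 and PBS 3, the tumours farthest from the median score, r was 0.79 for Flt1 and 0.83 for Flt4, and with each group centred on its own mean it was 0.84 for both. Kdr had r = 0.75 and rho = 0.81 (permutation p = 0.015 and 0.00717, adjusted 0.075 and 0.0625), which fell to r = 0.53 without those tumours, so that relation rested in part on them. Nrp1 and Nrp2 gave r = 0.17 and 0.33, which did not pass (permutation p = 0.634 and 0.422, adjusted 0.80 and 0.649), and rho = 0.04 and -0.006. Their r was 0.09 and 0.58 without PBS 1 and PBS 3. Without PBS 5 it changed sign, to -0.19 and -0.40. Among the ligands Vegfb gave r = 0.68 and rho = 0.64 (permutation p = 0.0338 and 0.0547, adjusted 0.113 and 0.182). Its r was 0.73 without PBS 1 and PBS 3. The other ligands gave r of -0.43 (Vegfd) to 0.02 (Vegfa). Without PBS 1 and PBS 3 their r was 0.13 (Vegfc and Vegfd), 0.18 (Pgf) and 0.68 (Vegfa). Without PBS 5 that of Vegfa was -0.30, so its value near 0 depended on which tumours were included. Groups of 5 tumours are too small for a correlation within each.

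Vegfa followed the genes of the hypoxia pathway, a list of 19 that holds Hif1a, Egln1, Slc2a1 and Pgk1 among others. Its r with the hypoxia score was 0.81 and its rho 0.65 (permutation p = 0.00633 and 0.0479, adjusted 0.0422 and 0.182 over the same 20 relations). Without PBS 3 and SLR14 2, the lowest and the highest score, r was 0.58, so the relation rested in part on those tumours, and without PBS 5 it was 0.93. Kdr ran the other way (r = -0.69, rho = -0.77, permutation p = 0.0212 and 0.0125, adjusted 0.0846 and 0.0625), with r = -0.36 without PBS 3 and SLR14 2. Pgf gave r = 0.65 and rho = 0.55 (permutation p = 0.0412 and 0.105, adjusted 0.118 and 0.299), with r = 0.26 without those tumours. SLR14 2, whose hypoxia score of 7.34 was the highest, had the highest ratio of Vegfa to Kdr per length. It was 31.0, against 13.0 to 16.5 in the other SLR14 tumours and 8.06 to 26.8 in PBS tumours. This ratio restates the Vegfa and Kdr values of the relations above. All points of these relations share the scaling of 1 library per tumour.

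**Figure D4:**
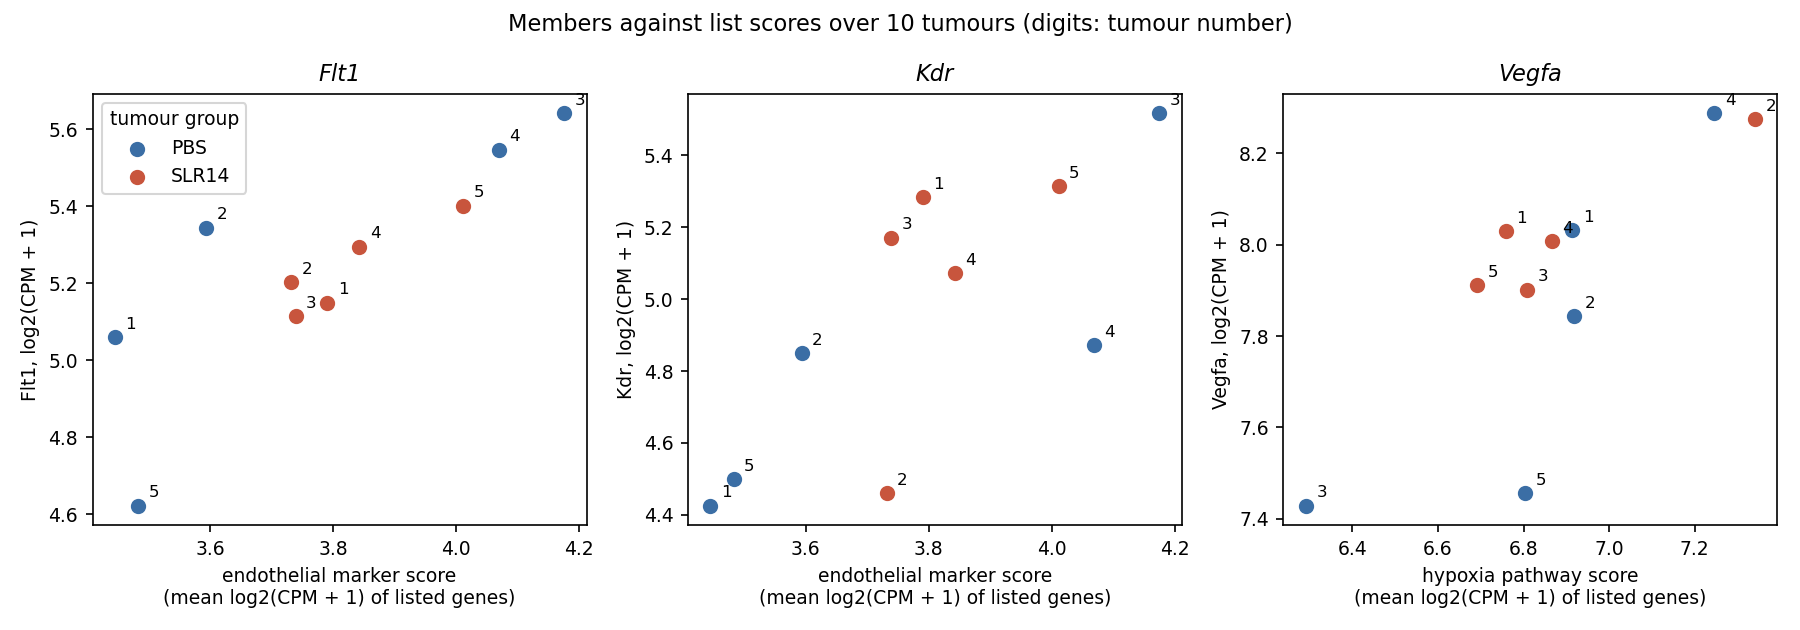
Flt1 and Kdr against the endothelial marker score and Vegfa against the hypoxia pathway score, all as log2(CPM + 1), 1 point per tumour (blue PBS, red SLR14, digit for the tumour number). PBS 3 is the upper right point of the first 2 panels and the lower left point of the third, and SLR14 2 has the lowest Kdr of the SLR14 tumours and the highest hypoxia score, 7.34.

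The genes whose pattern over the 10 tumours was most like that of a member are given as a description, by Pearson r of log2(CPM + 1). For Flt1 they were Spry4, an inhibitor of receptor tyrosine kinase signalling (0.97), Cdh5, the endothelial cadherin (0.97), and Flt4 (0.95). For Flt4 they included Cdh5 (0.98) and Spry4 (0.97). Vegfa was nearest to Mxd1, a MAX-binding repressor (0.97), Pgm1, a phosphoglucomutase (0.97), and the glycolytic enzyme gene Gapdh (0.97). Kdr was nearest to Fpgs, Ivd and Ighm (0.94, 0.94 and 0.93), none of which is on the endothelial list. Vegfd was nearest to Kctd20 (0.95), the keratin gene Krt18 (0.94) and Tollip (0.87). For Vegfb these were Cebpb (0.97), Mgat4b (0.96) and Capns1 (0.96), for Pgf Hmga1 (0.94), Ppp1r3b (0.94) and Vdac2 (0.93), and for Vegfc H2ac15, Ctla2a and Sh2d1b1 (0.92, 0.92 and 0.89). Nrp1 was nearest to Appbp2, Batf3 and Heatr1 (0.92, 0.91 and 0.91), and Nrp2 to Zc3h7b, Kank1 and Rcor1 (0.99 each). The values of Nrp2 rest in part on PBS 5, without which they were 0.90, 0.90 and 0.87.

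The promoters of Flt1, Kdr and Vegfa are shown because these genes moved with the endothelial markers or with the hypoxia pathway. The sequences are from RefSeq on GRCm38.p6, 5′ to 3′ in the direction of the gene and ending upstream of every annotated exon, with the searched motifs in capitals. All 3 genes lie on the minus strand, at chr5:147726012-147726261, chr5:75978459-75978705 and chr17:46032378-46032627.
Flt1: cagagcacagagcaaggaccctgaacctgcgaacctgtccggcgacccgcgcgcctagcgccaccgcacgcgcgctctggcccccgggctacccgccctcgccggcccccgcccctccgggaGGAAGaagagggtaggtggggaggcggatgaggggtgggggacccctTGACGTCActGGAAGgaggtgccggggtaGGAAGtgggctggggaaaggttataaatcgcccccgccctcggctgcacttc
Kdr: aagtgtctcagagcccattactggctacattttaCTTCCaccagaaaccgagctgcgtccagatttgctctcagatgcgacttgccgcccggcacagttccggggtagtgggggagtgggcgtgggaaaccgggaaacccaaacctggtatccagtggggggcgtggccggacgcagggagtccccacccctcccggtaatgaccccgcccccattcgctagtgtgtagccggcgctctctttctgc
Vegfa: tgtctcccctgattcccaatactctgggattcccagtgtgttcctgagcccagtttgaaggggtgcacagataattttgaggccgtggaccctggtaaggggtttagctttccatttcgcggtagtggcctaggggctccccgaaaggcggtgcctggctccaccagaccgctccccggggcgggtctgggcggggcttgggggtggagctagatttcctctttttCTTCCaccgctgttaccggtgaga
The motifs searched on both strands were the ETS core GGAAG, the letters bound by factors such as Erg of endothelial cells, the cAMP response element TGACGTCA, and the core of the hypoxia response element ACGTG, and no matches overlapped. In the 250 bases before the start, Flt1 held 3 ETS cores and 1 cAMP response element, and Kdr and Vegfa held 1 ETS core each. Of all 32851 promoter windows of that length, 64.1% held the ETS core, 1.55% the cAMP response element and 16.6% the hypoxia core, so an ETS core is common. None of the 3 printed windows held a hypoxia core, which says only that these letters are absent from them. The window of the second Vegfa start in the RefSeq table, which overlaps exons by 218 bases and is not printed, held 1 hypoxia core and 1 ETS core. The windows of Flt4 and Pgf lie wholly in annotated exons and are not printed.

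The rest of the pathway gave 0 calls in edgeR. Of 26 tested genes of VEGF receptor signalling (Plcg1, Shb, Nos3 and others), 0 passed, with a median log2 fold change of 0.10. An unadjusted p under 0.05 was reached by 2 of the 26, against 10.8% of all genes tested. Hspb1, a heat shock protein phosphorylated downstream of VEGFR-2, had the smallest p, with 203 ± 36.8 CPM under PBS and 267 ± 32.8 CPM under SLR14 (adjusted p = 0.273 in edgeR). DESeq2, which filters genes by its own rule, called Sh2d2a, an adaptor of VEGFR-2 and of T cells that edgeR's filter had left out (log2 fold change 2.03, DESeq2 adjusted p = 0.0385). It was not called in edgeR without the low-count filter either.

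Of 14 genes known to respond to VEGF in endothelium, 0 passed and 2 had an unadjusted p under 0.05 (10.8% of all genes tested). The median log2 fold change was -0.17, with 9 negative (all genes tested, 8261 of 15883). Kcne3, a potassium channel subunit of tip cells, had 7.36 ± 3.23 CPM under PBS and 3.82 ± 0.771 CPM under SLR14 (log2 fold change -0.95, edgeR adjusted p = 0.152), and DESeq2 called it (adjusted p = 0.0244). Apln, the apelin ligand, was named after its values were seen. It passed edgeR's test without PBS 5 (log2 fold change -0.69, adjusted p = 0.0202) and without both PBS 5 and SLR14 2 (-0.82, adjusted p = 0.00101). It had 37.1 ± 9.87 and 25.8 ± 5.34 CPM over all tumours (adjusted p = 0.326 in edgeR).

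Of 15 tested genes that process VEGFs or restrain them, 0 passed and 6 had an unadjusted p under 0.05, a level that 10.8% of all genes tested reached. Ccbe1, which brings VEGF-C to its protease, had 24.7 ± 3.02 CPM under PBS and 36.2 ± 9.22 CPM under SLR14 (log2 fold change 0.55, edgeR adjusted p = 0.179). Its partner protease gene Adamts3 was not analysed here. Of 10 tested class 3 semaphorins and plexins, the ligands and partners of neuropilins, 0 passed and 2 had an unadjusted p under 0.05. The median log2 fold change was 0.24, with 10 of 10 positive (all genes tested, 7622 of 15883). Plxna2 was at 157 ± 41.5 and 209.8 ± 31.8 CPM (adjusted p = 0.438 in edgeR), Sema3f at 76.5 ± 19.3 and 95.9 ± 11.6 CPM (adjusted p = 0.498 in edgeR), and Plxnd1 at 367 ± 128 and 374 ± 53.3 CPM (adjusted p = 0.974 in edgeR). PBS 5 also had the lowest score of this list, 4.28 against 4.89 to 5.19 in the other 9 tumours.

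Of 19 hypoxia pathway genes 0 passed and 0 had an unadjusted p under 0.05 (median log2 fold change 0.06). Hif1a was at 399 ± 59.4 and 401 ± 28.8 CPM (adjusted p = 0.982 in edgeR), Slc2a1, the glucose transporter, at 356 ± 161 and 416 ± 218 CPM (adjusted p = 0.807 in edgeR), and Car9, carbonic anhydrase 9, at 1.07 ± 0.329 and 0.972 ± 0.342 CPM (adjusted p = 0.864 in edgeR). Epas1, which encodes HIF-2α, had the smallest p of the list (28.3 ± 12.4 and 19.3 ± 7.82 CPM, adjusted p = 0.553 in edgeR).

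Endothelial and lymphatic markers did not pass either. Of 18 endothelial markers 0 passed and 0 had an unadjusted p under 0.05, with 8 positive and 10 negative fold changes and a median of -0.03. Pecam1 was at 43.2 ± 11.7 and 38.4 ± 7.33 CPM (adjusted p = 0.735 in edgeR), Cdh5 at 50.6 ± 15.4 and 47.9 ± 6.26 CPM (adjusted p = 0.88 in edgeR), and Eng, endoglin, with the smallest p, at 81.5 ± 23.5 and 103.6 ± 13.1 CPM (adjusted p = 0.513 in edgeR). Set against the endothelial score of the same tumour, Kdr differed by 0.16, Flt1 by -0.08 and Flt4 by -0.12 (log2, SLR14 minus PBS), and the groups overlapped for each. Of the 2 lymphatic markers tested, 1 had an unadjusted p under 0.05, with 1 positive and 1 negative fold change. It was Lyve1, a hyaluronan receptor of lymphatic endothelium and of some macrophages, at 2.67 ± 1.58 and 0.844 ± 0.694 CPM. Its log2 fold change was -1.76 (unadjusted p = 0.0138 and adjusted p = 0.306 in edgeR).

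Of the 8 mural cell markers 1 fell, 0 rose and 7 did not pass, with a median log2 fold change of -0.35. An unadjusted p under 0.05 was reached by 3 of the 8, and by 10.8% of all genes tested. Rgs5, a regulator of G protein signalling that marks pericytes, fell from 80.6 ± 6.20 CPM under PBS to 41.5 ± 8.24 CPM under SLR14, with no overlap between groups. In edgeR its log2 fold change was -0.96 ± 0.13 (SE) at an adjusted p of 0.00315. Rgs5 was the only gene called among the VEGF pathway, endothelial, lymphatic and mural lists in edgeR, while the mural list had 2 calls without SLR14 2 (Rgs5 and Kcnj8) and 3 without both PBS 5 and SLR14 2 (with Abcc9). Of 8 fibroblast markers 1 fell, Fap (2.89 ± 0.736 to 0.863 ± 0.317 CPM, edgeR adjusted p = 0.0126). Among the 8, 5 had an unadjusted p under 0.05 and 8 had negative fold changes (all genes tested, 8261 of 15883). Of 10 macrophage markers, cells that can carry Nrp1, Flt1 and Vegfa, 0 passed, and their summed level was 1835 to 2329 CPM in PBS and 1812 to 2276 CPM in SLR14 tumours. How far the cell makeup of the tumours sets the levels of the VEGF genes was not tested.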

How the data were processed

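Per the labels, libraries of the 10 tumours were made from rRNA-depleted RNA enriched with oligo(dT). The tools named, per the submitters' processing notes, are STAR, Trim Galore 0.6.7 and DESeq2 1.36.0, with the build mm39. No source used here gives the counting program, its strand setting or the annotation. The authors deposited raw counts per gene (whole numbers, 1 column per tumour). A second table deposited by the authors holds a size-factor-scaled signal, which served alternatives only. Genes with no symbol (74) held 0.0295% of counts and were kept. No 2 tumours of a group looked like 1 library (20 pairs, chi-square from 8.15 to 146 times its degrees of freedom).

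Counts passing filterByExpr (minimum count 10; 15883 genes) were scaled by TMM and tested in edgeR 4.0.16 (R 4.3.3) with no covariate over all 10 tumours, with adjustment over all genes tested. The SE is the absolute log2 fold change divided by the square root of F, and 95% intervals use the fit's degrees of freedom. Alternatives used DESeq2 1.42.0, limma 3.58.1, other factors and filters, a replicate block and left-out tumours. The fit was tested on simulated data. Correlations used 100000 resamples. Of the tested genes 15283 had an exon length in GENCODE M21, which is on GRCm38, not on mm39. Named genes are the 10 members, the called genes of each list (up to 3) or its gene with the smallest p, the 3 nearest in pattern to each member, and a fixed set. An item that this rule picks is not reported here. The members and lists were chosen with earlier results of these data known. Lists of dendritic, neutrophil, renal epithelial, adipocyte, keratinocyte, erythroid and muscle markers are given under other observations or with the results.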

Additional observations from a re-analysis of the deposited data

Results flagged for a closer look

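In 32 sets of 5 tumours (each gene, 4 ratios and 2 scores in each group), 6 held a tumour flagged by Dixon's test. Its gap to the nearest other exceeded the limit of 0.71 of the range. Chance gives this in about 1 of 20 sets of independent, normally distributed values. The sets here are not independent, because the ratios reuse the genes and all values of a tumour share 1 library scaling. The count of 6 therefore cannot show an excess over chance. Nrp2 in PBS 5 was 331 CPM, against 571 to 634 CPM in the other PBS tumours. Nrp1 in SLR14 5 was 48.7 CPM, against 42.6 to 44.0 CPM in the other SLR14 tumours. The ratio of Nrp2 to Nrp1 per length was 15.1 in PBS 4 and 8.59 to 10.4 in the other PBS tumours. SLR14 2 accounted for 3 of the 6. Its ratio of Vegfd to Vegfc per length was 78.0 (others 41.2 to 50.5), its ratio of Vegfa to Kdr was 31.0 (others 13.0 to 16.5) and its hypoxia score was 7.34 (others 6.69 to 6.87).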

How the results depend on the processing

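With 5 tumours a group, the absence of a call does not exclude a difference of a size within the intervals given. These intervals are not limits of detection, because a call required an adjusted p over all genes tested. The smallest difference that could be called was not tested. The count of VEGF genes called was 0 under all 20 alternatives. Their log2 fold changes changed sign in 12 cases, none called. Leaving out 1 tumour gave Flt1 -0.19 to 0.055 (positive without PBS 3 or PBS 4), Flt4 -0.33 to 0.080 (positive without PBS 3) and Nrp1 -0.12 to 0.082 (positive without PBS 1, 2 or 3 or SLR14 2 or 4). Nrp1 was 0.031 in limma voom, 0.038 and 0.037 in limma on the authors' normalized values with pseudocounts 1 and 5, and 0.027 with the replicate block. Myh4 was -0.68, -1.08 and -0.62 in those 3 limma fits. Leaving out 1 tumour gave Hif1a -0.054 to 0.066, Slc2a1 -0.15 to 0.47, Cdh5 -0.22 to 0.061 and Plxnd1 -0.17 to 0.16. Hif1a was -0.023 with upper-quartile factors. Without both PBS 5 and SLR14 2, Hif1a was -0.096, Slc2a1 -0.24 and Plxnd1 -0.19. None of these was called, and the cause was not tested.

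Over all genes 153 were called (107 higher, 46 lower). DESeq2 called 407 (251 higher, 156 lower). Leaving out 1 tumour gave 69 (PBS 1) to 194 (PBS 5) calls, 44 to 123 higher and 25 to 71 lower, and leaving out both PBS 5 and SLR14 2 gave 74 lower. The replicate number of the titles as a block gave 78 calls (51 higher, 27 lower), with Fap at an edgeR adjusted p of 0.0742 and Zbtb46 at 0.137. With that block the interferon-response list had 6 calls instead of 9, and the neutrophil list 1 instead of 4. Same-numbered tumours correlated at -0.28 to 0.15 in their deviations from the group means, so the numbers were not taken to pair the tumours. Under alternatives chosen after the data were seen (the authors' normalized values, a median score, and leaving out each tumour or both PBS 5 and SLR14 2), r with the endothelial score was 0.75 to 0.91 for Flt1, 0.73 to 0.89 for Flt4 and 0.65 to 0.85 for Kdr. With the hypoxia score it was 0.69 to 0.93 for Vegfa and -0.79 to -0.54 for Kdr. Leaving out the 2 tumours farthest from the median score gave weaker values for Kdr (0.53 and -0.36) and for Vegfa (0.58), outside these ranges.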

Other observations

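Markers of other cells were read from the same lists. Of 6 tested neutrophil markers 4 rose, among them Lcn2 (36.0 ± 2.70 to 92.7 ± 24.7 CPM, edgeR adjusted p = 0.00106), S100a8 (0.735 ± 0.217 to 3.25 ± 1.58 CPM) and Mmp8 (0.444 ± 0.147 to 2.49 ± 1.39 CPM). Of 5 tested dendritic cell markers 2 fell, Cd209a (2.79 ± 0.783 to 0.135 ± 0.0793 CPM) and Zbtb46 (3.94 ± 0.729 to 2.07 ± 0.417 CPM, edgeR adjusted p = 0.0398). Of 10 renal epithelial markers Epcam fell (3.45 ± 1.62 to 0.617 ± 0.502 CPM, edgeR adjusted p = 0.0324), a call lost on leaving out PBS 1, 3 or 4, SLR14 1, 2, 3 or 4, or both PBS 5 and SLR14 2. Zbtb46 was lost on leaving out PBS 1, 2, 3 or 4 or SLR14 2, 3, 4 or 5. The neutrophil count was 2 without PBS 3, 1 in limma voom and 1 with the replicate block. None of the 10 skeletal muscle, 6 erythroid and 1 tested adipocyte markers passed in edgeR, with 0, 2 and 0 at an unadjusted p under 0.05, and 0 keratinocyte markers were tested. Myh4, Slc4a1 and Fabp4 had the smallest p of these lists (edgeR adjusted p = 0.715, 0.301 and 0.559).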
